A study of Mus musculus with 21 samples.

Results

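The immediate early transcription factors described here are 10 mouse genes, Fos, Fosb, Fosl2, Jun, Junb, Jund, Egr1, Egr2, Nr4a1 and Klf4. They were taken by symbol from the 53801 gene identifiers counted in each of 21 RNA-seq libraries, and all 10 passed the filter on low counts in both experiments of the series. Fosb did so only through libraries of the groups where it was high. The heart experiment had 15 libraries collected at day 7 from the border zone of the infarct according to the labels, which use that term for sham hearts too. The groups were 4 libraries of WT mice given myocardial infarction plus FAPI (FAPI hearts), 4 of FapKO mice given infarction (FapKO hearts), 4 of WT mice given infarction (MI hearts) and 3 of sham-operated WT mice (sham hearts). The product of Fap is a protease on the surface of activated fibroblasts, and FAPI is read here as an inhibitor of it from the series title. The sources used here give neither the compound and its dose nor the knockout allele, strain, age and sex of the mice. In the culture experiment, cardiac fibroblasts from mouse ventricles spent 7 days in 5% GelMA, a gelatin-based hydrogel, after growth in serum with a ROCK inhibitor. In 3 libraries they shared the gel with endothelial cells of heart and lung, at a stated ratio of 2:1, and were then sorted as Pdgfra-positive cells without CD45 or CD31 (co-culture). In 3 libraries they were grown alone and taken from the gel without a sort (alone), so partner cells and sorting changed together and cannot be told apart.

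Immediate early genes are switched on within minutes of a stimulus, without new protein synthesis, when kinases activate factors such as SRF with its ternary complex partners and CREB that already sit on their promoters. Fos, Fosb, Fosl2, Jun, Junb and Jund encode the subunits of AP-1, a dimer of a Jun protein with a Fos or another Jun protein that binds DNA. Egr1 and Egr2 are zinc finger factors, Nr4a1 is an orphan nuclear receptor, and Klf4 is a Krüppel-like zinc finger factor. In the heart this group is known from mechanical stretch, ischaemia and growth factor signalling, and in isolated cells it is also known to rise during dissociation and sorting.

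Heart libraries held 18474138 to 37287355 gene counts, co-culture libraries 4735337 to 6346015 and alone libraries 12871240 to 15650221. Levels below are counts scaled to library size with TMM (CPM), and a gene counts as called where the Benjamini-Hochberg adjusted p of edgeR's quasi-likelihood test over all genes tested (17064 in hearts, 12293 in culture) is under 0.05. Whether every heart library stands for 1 animal is not labelled, and the p-values reflect variation among the samples, which may be technical. Fap, the check of the knockout, averaged 2.16 ± 0.257 CPM in FapKO and 11.2 ± 1.57 CPM in MI hearts (SD, 4 libraries each), with 46 to 68 counts left in the FapKO hearts. It averaged 3.32 ± 0.578 CPM in the 3 sham hearts, 1.53-fold above the FapKO hearts. The mean log2 CPM of 14 cardiomyocyte markers was 10.1 to 10.9 in FAPI, 10.7 to 10.96 in FapKO, 8.26 to 9.59 in MI and 11.5 to 11.7 in sham hearts, with no marker at 0. In bulk tissue, fewer cells of a type and less RNA per cell cannot be told apart. Scaling by total count in place of TMM moved the all-gene median of log2 fold changes to 1.23 for MI against sham (0.14 with TMM), -0.44 for FAPI against MI (-0.03), -0.63 for FapKO against MI (-0.08), 0.16 for FAPI against FapKO (0.02) and -0.41 for co-culture against alone (-0.06). Measured from the median of all genes, the 70 member fold changes differed between both scalings by at most 0.04.

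The promoters of 4 members that were higher together in co-culture are shown because they carry the same short motif. They are the 250 bases before the RefSeq transcription start on GRCm38.p6, read 5′ to 3′ on the gene's strand. Capitals mark TGACG or its complement CGTCA, the core of the cAMP response element. The windows are chr12:85473640-85473889 on the plus strand for Fos, chr7:19310046-19310295 on the minus strand for Fosb, chr8:84978749-84978998 on the minus strand for Junb and chr15:101266596-101266845 on the plus strand for Nr4a1, whose RefSeq start lies inside the longer annotated gene.
Fos: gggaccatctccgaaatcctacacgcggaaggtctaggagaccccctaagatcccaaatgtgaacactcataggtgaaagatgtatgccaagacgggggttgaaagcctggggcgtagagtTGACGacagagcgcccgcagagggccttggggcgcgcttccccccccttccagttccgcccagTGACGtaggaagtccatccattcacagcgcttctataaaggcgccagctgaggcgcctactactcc
Fosb: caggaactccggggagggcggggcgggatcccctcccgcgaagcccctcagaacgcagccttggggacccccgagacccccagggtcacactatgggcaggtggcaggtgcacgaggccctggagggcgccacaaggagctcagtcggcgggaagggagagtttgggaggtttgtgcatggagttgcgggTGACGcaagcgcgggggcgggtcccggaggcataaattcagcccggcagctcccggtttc
Junb: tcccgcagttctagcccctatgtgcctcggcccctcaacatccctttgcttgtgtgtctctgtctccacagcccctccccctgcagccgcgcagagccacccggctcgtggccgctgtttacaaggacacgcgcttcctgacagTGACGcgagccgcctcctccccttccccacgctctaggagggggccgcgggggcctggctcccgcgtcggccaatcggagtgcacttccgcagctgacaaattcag
Nr4a1: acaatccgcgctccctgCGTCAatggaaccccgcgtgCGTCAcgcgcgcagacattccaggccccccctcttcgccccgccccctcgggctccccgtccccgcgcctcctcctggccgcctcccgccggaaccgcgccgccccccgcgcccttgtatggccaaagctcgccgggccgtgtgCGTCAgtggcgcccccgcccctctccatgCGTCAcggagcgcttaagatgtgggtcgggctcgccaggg
With positions counted back from the start site, the motif began at -129 and -66 in Fos, at -60 in Fosb, at -106 in Junb and at -233, -213, -69 and -40 in Nr4a1. RefSeq windows of 250 bases before to 50 after the start were at hand for 9 members, all but Egr1. For Jund the 250 bases end at chr8:70697738, upstream of the annotated gene start at 70698949. For Fosl2 they lie inside the annotated gene. On either strand, TGACG was present in 6 of the 9 (Fos, Fosb, Junb, Egr2, Nr4a1 and Klf4) and in 20.9% of the 32544 distinct mouse windows of this length. Of these 6, Klf4 was lower in co-culture, while Fosl2, without TGACG, was higher there. The whole element TGACGTCA, which contains TGACG, was in 0 of the 9 and in 1.8% of all windows. The AP-1 motif TGACTCA, in 5.19% of all windows, and the EGR motif GCGTGGGCG, in 0.618%, were each in 0 of the 9. The CArG box, the motif bound by SRF, was in 1 of the 9, Egr2, and in 1.64% of all windows. A member counted where any of its windows matched, while the shares over all windows are per window. Egr2 had several windows, and its first held neither TGACG nor a CArG box. The GC box GGGCGG was in 7 of the 9 and in 35.9% of all windows. A match describes the letters in these windows and nothing more.

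FAPI and FapKO hearts, the groups in which Fap was targeted by FAPI or by knockout, share no library. Fos, Fosb, Junb, Egr2 and Nr4a1 were higher in FAPI hearts and 0 members were lower. The folds ran from 1.57 (Nr4a1) to 2.83 (Fos), with 3.47 for Fosb, which rested on few counts. Fosl2, Jun, Jund, Egr1 and Klf4 were not called. Over all genes tested 13.2% were called, 7.05% higher and 6.12% lower. The median log2 fold change was 0.50 over the 10 members and 0.02 over all genes, and both groups did not overlap for 5 of 10 members and for 18.6% of all genes. These 5 calls held under RLE and total-count scaling, limma-voom and a cardiomyocyte covariate. DESeq2 called 4 members, a fit on these groups only called 4 of the 9 it could test, and a macrophage covariate left 0. Fosb, with 2 to 5 counts per FapKO heart, failed the filter in the fit on these groups only.

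Against MI hearts, which are shared by both comparisons, Fosl2 was the only member called in both, and it was lower in both. The other members called were not the same in the FAPI and FapKO hearts. In FAPI hearts Jun, Egr2 and Nr4a1 were higher and Fosl2 was lower, 4 of 10 members, where 29.8% of all genes were called, 17.9% higher and 11.9% lower. The groups did not overlap for 2 of 10 members and for 26.1% of all genes. With total-count scaling only Nr4a1 of these 3 was still called higher. In FapKO hearts Fos, Fosb, Fosl2 and Junb were lower and 0 members were higher, where 51.0% of all genes were called, 26.0% lower and 25.0% higher. The groups did not overlap for 4 of 10 members and for 45.4% of all genes. The median over the members was 0.32 in FAPI against MI (all genes -0.03) and -0.21 in FapKO against MI (all genes -0.08).

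In MI against sham hearts, Fosl2, Junb and Egr2 were higher, and Fos, Nr4a1 and Klf4 were lower, though with total-count scaling Fos and Klf4 turned positive (0.36 and 0.73). Klf4 was then called higher (edgeR adjusted p = 0.000177), while Fos was not called. Most genes were called in this comparison, 69.1% of all, with 37.1% higher and 32.0% lower. The groups did not overlap for 8 of 10 members and for 67.5% of all genes. Against sham, FAPI hearts had 4 members higher (Fosb, Fosl2, Junb, Egr2; all genes 29.2%) and 2 lower (Nr4a1, Klf4; all genes 26.5%), with Klf4 turned positive by total-count scaling (0.25). Of all genes 55.8% were called there, and 6 of 10 members had separate ranges, as did 57.5% of all genes. FapKO hearts had 1 member higher than sham (Egr2; all genes 19.2%) and 3 lower (Fos, Nr4a1, Klf4; all genes 20.3%), and Klf4 again turned positive (0.06). Of all genes 39.5% were called there, and 4 of 10 members had separate ranges, as did 46.8% of all genes.

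**Figure D1:**
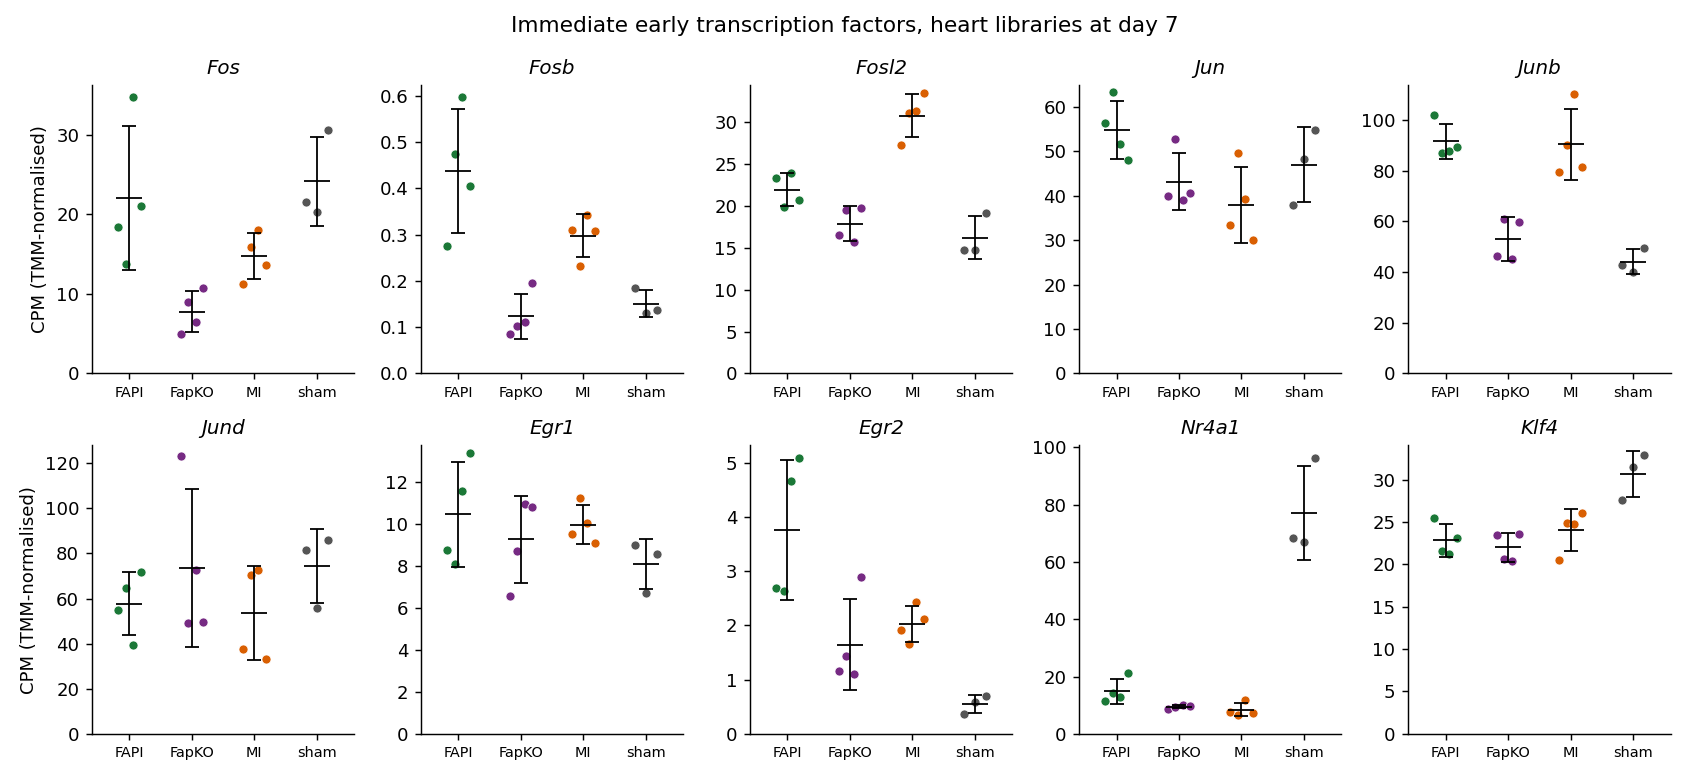
Level of each of the 10 members in the 15 heart libraries, in TMM-normalised CPM on linear axes that start at 0; points are libraries and the bars give the group mean ± SD (n = 4 for FAPI, FapKO and MI, n = 3 for sham). Fos, Fosb, Junb and Nr4a1 lie higher in every FAPI heart than in every FapKO heart, and Nr4a1 lies above 66 CPM in the sham hearts only.

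Fos encodes the founding Fos subunit. It had 18.4, 13.7, 34.8 and 21.1 CPM in the FAPI hearts, 4.98, 8.93, 6.45 and 10.8 CPM in the FapKO hearts, 11.3, 15.9, 18.1 and 13.7 CPM in the MI hearts, and 21.6, 20.3 and 30.6 CPM in the sham hearts. The FapKO hearts lay below every other heart, the FAPI hearts spread over the MI and sham ranges, and no MI heart reached a sham heart. Fos was 2.83-fold higher in FAPI than in FapKO hearts (log2 1.5, SE 0.27, edgeR adjusted p = 0.00207). It was lower in FapKO than in MI hearts (log2 -0.92, SE 0.27, edgeR adjusted p = 0.00934) and lower in FapKO than in sham hearts (log2 -1.63, SE 0.29, edgeR adjusted p = 0.000504). Against sham, MI hearts gave log2 -0.71 (SE 0.28, edgeR adjusted p = 0.0338), a call that ended without sham replicate 3 (-0.51), MI replicate 1 (-0.60) or MI replicate 4 (-0.68). FAPI against MI gave log2 0.58, which was not called (edgeR adjusted p = 0.104). It was called without FAPI replicate 2 (0.75) and without the filter on low counts (0.59), and stood at 0.27 without FAPI replicate 3.

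Fosb, a close relative of Fos, was the least expressed member, with 8, 13, 20 and 14 counts in the FAPI hearts, 2, 3, 3 and 5 in the FapKO hearts, 10, 9, 11 and 8 in the MI hearts and 3, 2 and 2 in the sham hearts. In CPM these were 0.28 to 0.60 in FAPI, 0.09 to 0.20 in FapKO, 0.23 to 0.34 in MI and 0.13 to 0.18 in sham hearts. FAPI and MI hearts all lay above the FapKO hearts, and FapKO and sham hearts overlapped. The test gave log2 1.80 for FAPI against FapKO (SE 0.35, edgeR adjusted p = 0.00315) and -1.23 for FapKO against MI (SE 0.36, edgeR adjusted p = 0.0107). With so few counts the call against MI ended without the filter on low counts (-1.23) and with DESeq2 (-1.24). FAPI against sham gave log2 1.51 (SE 0.42, edgeR adjusted p = 0.00642).

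Fosl2 encodes Fra-2, a Fos relative that lacks the strong transactivation domain of Fos. It had 23.4, 19.8, 23.9 and 20.7 CPM in the FAPI hearts, 16.5, 19.5, 15.7 and 19.8 CPM in the FapKO hearts, 27.3, 31.1, 31.3 and 33.5 CPM in the MI hearts, and 14.8, 14.7 and 19.2 CPM in the sham hearts. Every MI heart was above every other heart. Fosl2 was lower than in MI in both the FAPI hearts (log2 -0.49, SE 0.11, edgeR adjusted p = 0.00386) and the FapKO hearts (log2 -0.78, SE 0.11, edgeR adjusted p = 3.02e-05). MI hearts were 1.90-fold above sham hearts (log2 0.93, SE 0.13, edgeR adjusted p = 6.15e-06). FAPI and FapKO hearts did not overlap but nearly touched, and their difference was not called (log2 0.30, edgeR adjusted p = 0.0892).

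Junb encodes a Jun protein with a weaker transactivation domain than Jun. It had 102.0, 87.0, 88.0 and 89.5 CPM in the FAPI hearts, 46.2, 61.0, 45.1 and 59.9 CPM in the FapKO hearts, 79.4, 90.3, 110.4 and 81.5 CPM in the MI hearts, and 42.9, 39.8 and 49.5 CPM in the sham hearts. FAPI and MI hearts shared a range, and FapKO and sham hearts shared a lower one. FAPI exceeded FapKO by 1.73-fold (log2 0.79, SE 0.13, edgeR adjusted p = 0.00104), FapKO fell below MI (log2 -0.77, SE 0.13, edgeR adjusted p = 0.000127), and MI exceeded sham by 2.05-fold (log2 1.04, SE 0.14, edgeR adjusted p = 7.62e-06). FAPI against MI was close to 0 (log2 0.02, interval of 2 SE from -0.24 to 0.27), and FapKO against sham was not called (log2 0.27, edgeR adjusted p = 0.142). With total-count scaling FAPI against MI was called lower (-0.38). The end of Junb overlaps Prdx2 on the other strand (bases 84974484 to 84974834 of chromosome 8), and since the counting is not stated to use strand, reads of this stretch cannot be assigned to one gene.

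Jun, the main Jun subunit, had 56.3, 63.3, 51.7 and 48.1 CPM in the FAPI hearts, 40.05, 52.7, 39.1 and 40.7 CPM in the FapKO hearts, 33.4, 49.5, 39.2 and 30.0 CPM in the MI hearts, and 37.9, 48.3 and 54.9 CPM in the sham hearts. All 4 groups overlapped with a neighbour. Only FAPI against MI was called (log2 0.53, SE 0.16, edgeR adjusted p = 0.0184), and that call ended without MI replicate 1 (0.47), MI replicate 4 (0.43) or FAPI replicate 2 (0.44) and with total-count scaling (0.10). Jund, a Jun protein with high basal expression, ranged from 39.6 to 71.8 CPM in FAPI, 49.0 to 123.4 CPM in FapKO, 33.3 to 72.4 CPM in MI and 55.7 to 86.1 CPM in sham hearts. It was called in none of the 6 heart comparisons by edgeR's quasi-likelihood test. For FAPI against FapKO its log2 difference was -0.35, with a 2 SE interval from -0.96 to 0.26. Jun overlaps the antisense gene Junos and Jund the antisense gene Gm11175, with the same limit on assigning reads.

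Egr1 and Egr2 differed in how they followed the groups. Egr1 had 8.75, 8.07, 11.6 and 13.4 CPM in the FAPI hearts, 6.57, 8.72, 10.9 and 10.8 CPM in the FapKO hearts, 9.53, 11.2, 10.0 and 9.09 CPM in the MI hearts, and 8.99, 6.73 and 8.55 CPM in the sham hearts. It was called in none of the heart comparisons with TMM and all hearts, and for FAPI against FapKO the 2 SE interval ran from -0.17 to 0.52 on the log2 scale. FAPI against sham was called without the filter on low counts (0.43) and without FAPI replicate 2 (0.48). With total-count scaling Egr1 was called higher in MI (1.39), FAPI (1.04) and FapKO hearts (0.73) than in sham hearts. It was then called lower in FapKO than in MI hearts (-0.66). Egr2 had 2.69, 2.63, 4.66 and 5.08 CPM in the FAPI hearts, 1.16, 1.43, 1.11 and 2.89 CPM in the FapKO hearts, 1.92, 1.65, 2.43 and 2.12 CPM in the MI hearts, and 0.37, 0.59 and 0.69 CPM in the sham hearts. Every infarcted heart lay above every sham heart, and FapKO replicate 4 reached into the FAPI range. Egr2 was 2.30-fold higher in FAPI than in FapKO hearts (log2 1.2, SE 0.29, edgeR adjusted p = 0.0131), a call that ended without FapKO replicate 3 (1.05). It was higher in FAPI than in MI hearts (log2 0.90, SE 0.28, edgeR adjusted p = 0.0239), a call that ended without MI replicate 1 (0.88), MI replicate 2 (0.81), FAPI replicate 3 (0.78) or FAPI replicate 4 (0.72). Against sham, log2 differences were 2.79 in FAPI (SE 0.41, edgeR adjusted p = 3.19e-05), 1.59 in FapKO (SE 0.43, edgeR adjusted p = 0.00862) and 1.88 in MI hearts (SE 0.42, edgeR adjusted p = 0.00085). The FapKO call ended without sham replicate 1 (1.36) and with limma-voom (1.46).

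Nr4a1 was far lower in infarcted than in sham hearts. It had 11.3, 14.1, 12.98 and 21.3 CPM in the FAPI hearts, 8.59, 9.54, 10.1 and 9.87 CPM in the FapKO hearts, 7.74, 6.75, 11.7 and 7.28 CPM in the MI hearts, and 68.4, 66.8 and 96.2 CPM in the sham hearts. Every infarcted heart lay far below every sham heart, and the infarcted groups overlapped or lay side by side. Nr4a1 fell by 3.20 on the log2 scale in MI against sham hearts (SE 0.22, edgeR adjusted p = 4.57e-09), by 3.02 in FapKO hearts (SE 0.21, edgeR adjusted p = 3.59e-07) and by 2.37 in FAPI hearts (SE 0.21, edgeR adjusted p = 2.41e-07). With total-count scaling the fall in MI hearts was -2.15. FAPI exceeded MI hearts by 1.78-fold (log2 0.83, SE 0.20, edgeR adjusted p = 0.00502), though FAPI replicate 1 lay below MI replicate 3. FAPI against FapKO was 1.57-fold (log2 0.65, SE 0.20, edgeR adjusted p = 0.0398), and 7 of the 8 fits that each leave out 1 of these hearts did not call it, with log2 values from 0.43 to 0.76 over the 8. FapKO against MI was not called (log2 0.18, 2 SE interval from -0.22 to 0.59).

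Klf4, known from vascular cells and macrophages, kept to a narrow range in the hearts. It had 25.5, 21.6, 21.2 and 23.2 CPM in the FAPI hearts, 23.4, 20.6, 20.4 and 23.6 CPM in the FapKO hearts, 20.5, 24.8, 24.8 and 26.0 CPM in the MI hearts, and 27.6, 31.5 and 32.9 CPM in the sham hearts. The infarcted groups shared a range below the sham hearts. Against sham, Klf4 was lower in FAPI (log2 -0.42, SE 0.11, edgeR adjusted p = 0.00318), FapKO (log2 -0.48, SE 0.11, edgeR adjusted p = 0.00259) and MI hearts (log2 -0.35, SE 0.11, edgeR adjusted p = 0.00809), each turned positive by total-count scaling as given above. With that scaling only MI against sham was called, as higher. The call of lower Klf4 in MI hearts also ended without the filter on low counts (-0.30).

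**Figure D2:**
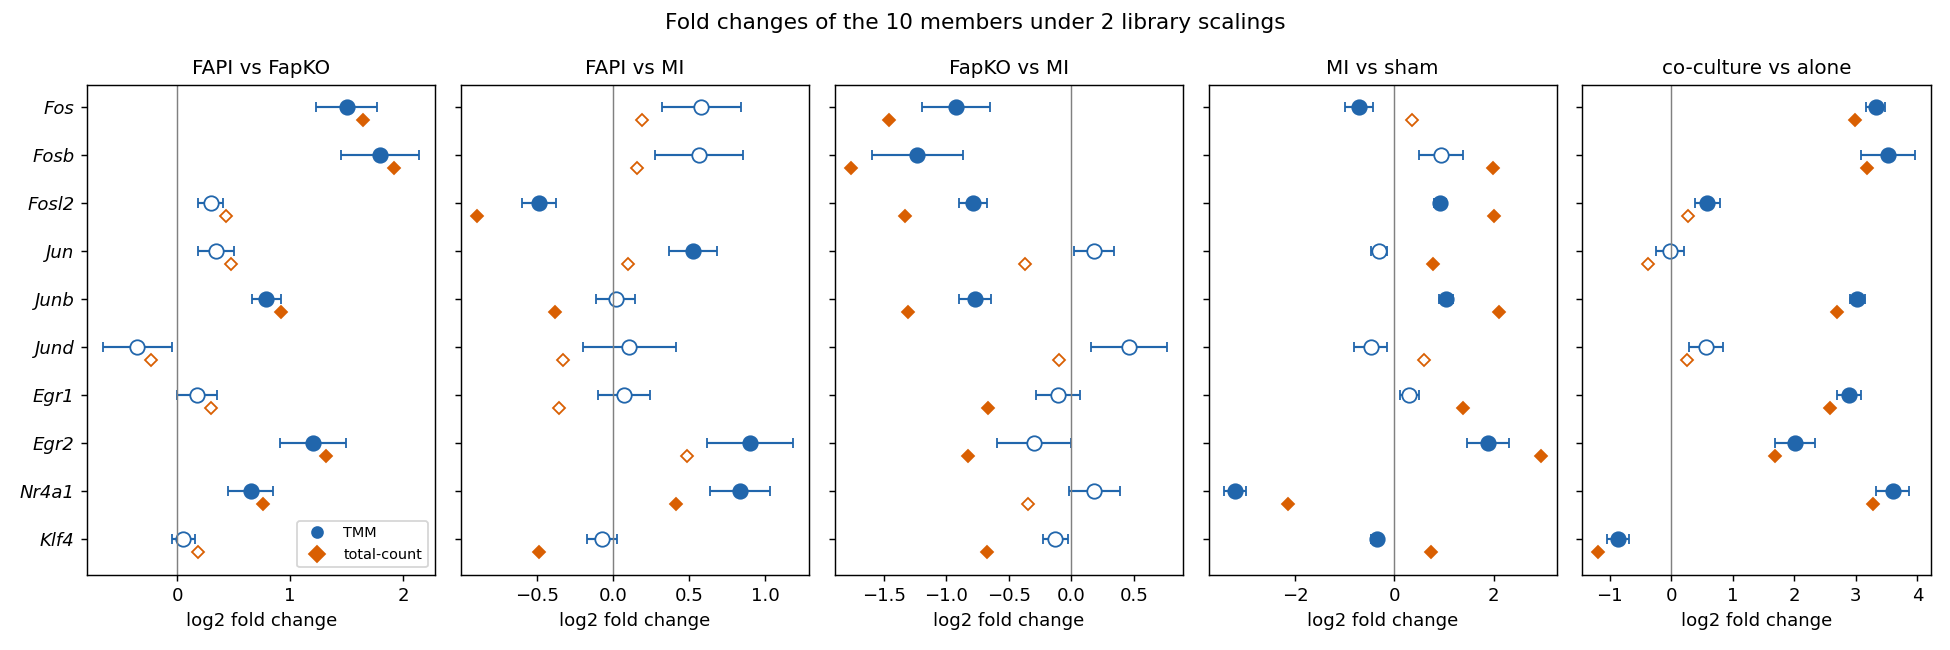
Log2 fold changes of the 10 members in 4 heart comparisons and in culture, first-named group over second; circles with bars are TMM estimates ± SE, diamonds are total-count estimates, and filled symbols are called (edgeR adjusted p under 0.05). In FAPI against FapKO and in co-culture against alone the called members have the same sign under both scalings, while in MI against sham Fos and Klf4 change sign.

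Markers of other cell types also differed between the heart groups. In FAPI against MI hearts 0 of 11 macrophage markers were higher and 7 lower (all genes 17.9% and 11.9%). The mean log2 CPM of 11 macrophage markers was 6.65 to 7.22 in FAPI and 6.01 to 6.58 in FapKO hearts (summed 5162 to 9061 and 3135 to 5910 CPM), and 7 of the 11 were called higher in FAPI. With this level as a covariate, chosen after the data were seen, 0 of 10 members and 100 of 17064 genes were called in FAPI against FapKO. The log2 estimates were then 0.65 for Fos, 1.40 for Fosb, 0.61 for Junb, 0.59 for Egr2 and 0.79 for Nr4a1. The mean log2 CPM of 11 fibroblast markers was 8.40 to 8.84 in FAPI and 8.31 to 8.41 in FapKO hearts, with 1 called higher and 1 lower, and 9 smooth muscle and pericyte markers were at 4.46 to 4.74 and 4.36 to 4.62, with 1 called each way. In MI against sham hearts the fibroblast markers were at 8.81 to 9.07 and 7.33 to 7.54, the macrophage markers at 7.32 to 7.63 and 5.66 to 5.84, and the adipocyte markers at 4.95 to 5.68 and 2.57 to 2.95. In FAPI against FapKO hearts, 4 of 6 T cell markers were higher in FAPI hearts, and 5 of 7 adipocyte, 3 of 10 endothelial and 2 of 14 cardiomyocyte markers were lower. Neutrophil markers (0 of 9) and B cell markers (0 of 6) were not called by edgeR in that comparison, with 0 and 3 of them at an unadjusted p under 0.05. All 14 cardiomyocyte markers were lower in MI than in sham hearts and higher in FAPI and FapKO than in MI hearts, and all 9 neutrophil markers were higher in MI hearts in these same 3 comparisons. With the cardiomyocyte level as a covariate, 0 of 10 members were called in MI against sham (735 of all genes), FAPI against MI (26) and FapKO against MI (122). The SEs grew with it, and some estimates grew while others shrank. In MI against sham, Junb grew to log2 1.35 (SE 0.38), Egr2 to 2.46 (SE 0.95) and Fos to -0.98 (SE 0.82). Junb in FapKO against MI (-0.999, SE 0.29) and Jun in FAPI against MI (0.66, SE 0.33) also grew. In MI against sham, Nr4a1 shrank from -3.20 to -1.53 (SE 0.48), Fosl2 from 0.93 to 0.63 and Klf4 from -0.35 to -0.29. In FAPI against MI, Egr2 shrank from 0.90 to 0.56 and Nr4a1 turned from 0.83 to -0.18. The part of these cell types in the member changes was not tested.

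The culture comparison asks how fibroblasts that shared a gel with endothelial cells differed from those grown alone. Co-cultured fibroblasts had 7 of 10 members higher than fibroblasts grown alone (Fos, Fosb, Fosl2, Junb, Egr1, Egr2, Nr4a1) and 1 lower (Klf4), while Jun and Jund were not called. Fosb, counted among the higher, passed the filter on low counts only through the co-culture libraries. Over all genes tested 59.8% were called, 30.3% higher and 29.5% lower. Excluding Fosl2, the 6 higher members were raised 4.02-fold (Egr2) to 12.1-fold (Nr4a1), and the median log2 fold change was 2.45 over the 10 members and -0.06 over all genes. Co-culture and alone libraries did not overlap for 8 of 10 members and for 67.0% of all genes.

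**Figure D3:**
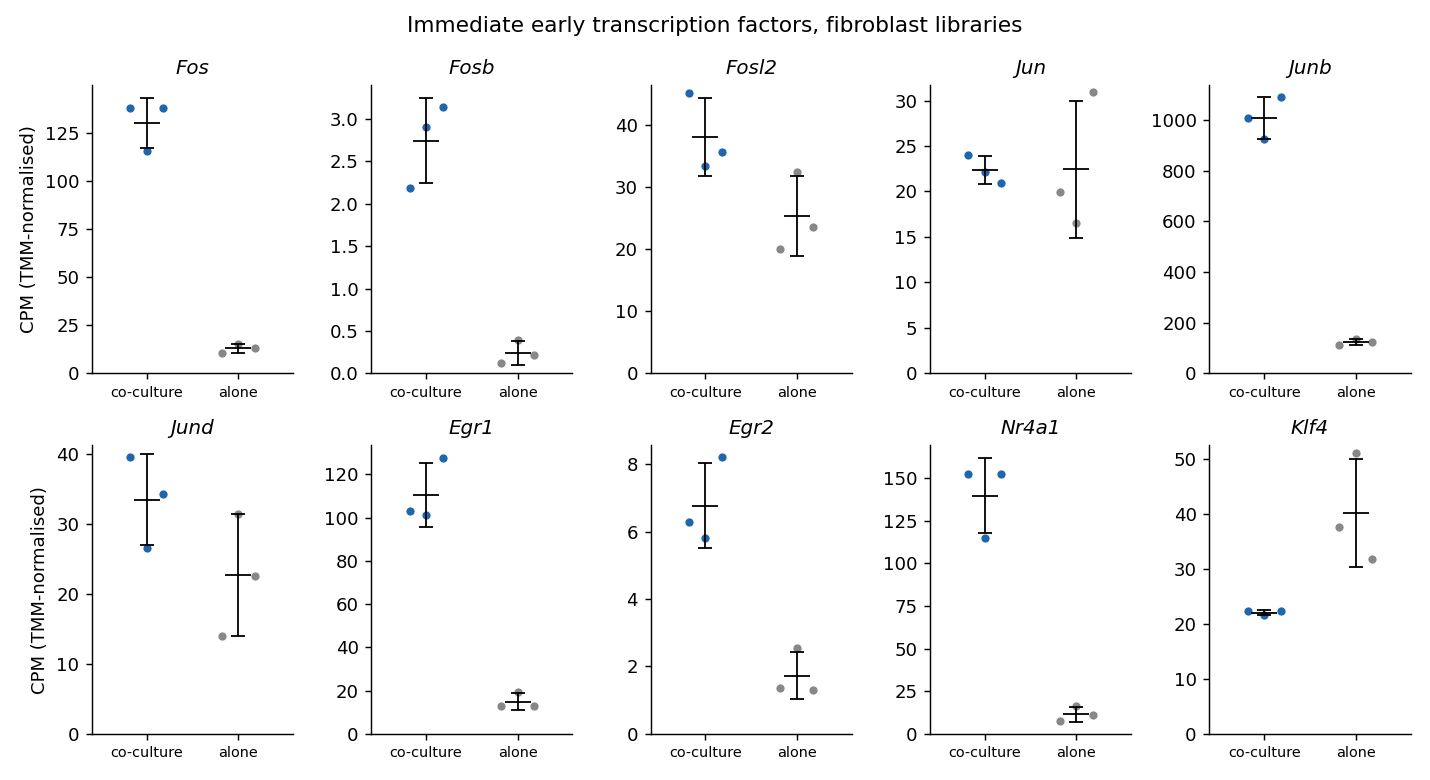
Level of each member in the 3 co-culture and 3 alone fibroblast libraries, in TMM-normalised CPM on linear axes that start at 0; points are libraries and bars the group mean ± SD. Fos, Junb, Egr1 and Nr4a1 are each above 100 CPM in every co-culture library, and of these 4 only Junb is above 20 CPM in the alone libraries.

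Fos had 137.9, 115.4 and 137.8 CPM in co-culture and 10.8, 15.3 and 13.2 CPM alone, and Fosb 2.18, 2.91 and 3.14 CPM in co-culture and 0.12, 0.40 and 0.21 CPM alone. Every co-culture library was far above every alone library for both. Fos was 9.98-fold higher in co-culture (log2 3.32, SE 0.16, edgeR adjusted p = 1.32e-06). Fosb rested on few counts (9 to 18 per co-culture library, 2 to 5 per alone library) and gave log2 3.52 (SE 0.43, edgeR adjusted p = 0.000152). Fosl2 had 45.1, 33.3 and 35.6 CPM in co-culture and 19.9, 32.4 and 23.6 CPM alone, so its groups came close to touching. Its log2 difference was 0.59 (SE 0.20, edgeR adjusted p = 0.0303). That call ended with total-count scaling (0.27), with libraries thinned to the smallest total (0.51), and without co-culture replicate 1 (0.45) or 3 (0.63) or alone replicate 1 (0.42) or 3 (0.52).

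Among the Jun proteins, Junb stood apart. It had 1008, 926 and 1089 CPM in co-culture and 112.8, 134.4 and 124.7 CPM alone, an 8.13-fold difference (log2 3.02, SE 0.12, edgeR adjusted p = 8.88e-07). Jun had 24.0, 22.1 and 20.95 CPM in co-culture and 20, 16.5 and 30.9 CPM alone, with co-culture inside the range of the alone libraries. Its log2 difference was -0.01 with a 2 SE interval from -0.47 to 0.44. Jund had 39.5, 26.6 and 34.2 CPM in co-culture and 14.0, 31.4 and 22.5 CPM alone, which overlapped and was not called (log2 0.57, edgeR adjusted p = 0.105). Without alone replicate 2 it was called, at 0.85, as it was without the filter on low counts (0.47) and with thinned libraries (0.68).

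Egr1 had 103.0, 101.3 and 127.6 CPM in co-culture and 12.8, 19.3 and 12.7 CPM alone, and was 7.44-fold higher (log2 2.89, SE 0.20, edgeR adjusted p = 5.12e-06). Egr2 had 6.30, 5.81 and 8.21 CPM in co-culture and 1.36, 2.55 and 1.29 CPM alone (log2 2.01, SE 0.32, edgeR adjusted p = 0.000688). Nr4a1 had 152.2, 114.7 and 152.4 CPM in co-culture and 7.55, 16.2 and 11.1 CPM alone, and gave the largest of the 10 differences (log2 3.60, SE 0.27, edgeR adjusted p = 9.34e-06). For these 3 genes no library of one group came near the other group. Klf4 went the other way, at 22.3, 21.7 and 22.4 CPM in co-culture and 37.8, 51.1 and 31.9 CPM alone (log2 -0.86, SE 0.18, edgeR adjusted p = 0.00317). The co-culture libraries held the tightest Klf4 values and all lay below the alone libraries.

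Cell type markers in culture gave the following values. The 11 fibroblast markers averaged 8.97 to 9.04 log2 CPM in co-culture and 8.02 to 8.19 alone. The 10 endothelial markers summed to 21.01 to 23.9 CPM in co-culture and 17.7 to 19.7 CPM alone, while their mean log2 CPM was -0.54 to -0.29 in co-culture and -0.41 to 0.08 alone, and 1 of the 4 that could be tested was higher in co-culture. The 11 macrophage markers averaged 2.05 to 2.58 log2 CPM in co-culture and 3.75 to 4.14 alone, with Cd163 at 0 in co-culture and 9 of 10 tested markers lower there. The 9 smooth muscle and pericyte markers summed to 483.6 to 583.5 CPM in co-culture and 1465 to 2517 CPM alone, with 1 of 5 tested higher and 4 lower. The 9 neutrophil markers summed to 33.7 to 45.6 CPM in co-culture and 6.44 to 8.20 CPM alone, with 5 of them at 0 in co-culture and 2 at 0 alone. Of 7 adipocyte markers, 3 of the 4 tested were higher in co-culture, where they summed to 207.0 to 255.6 CPM, against 19.8 to 25.2 CPM alone, with Lep at 0 in both groups and Cidec at 0 in the alone libraries. The part of these cells, of the sort and of the lower depth of the co-culture libraries in the member differences was not tested separately, and thinning every library to the smallest total left Fos, Junb, Egr1, Egr2, Nr4a1 and Klf4 called, with Fosb not tested.

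On mm10 the members lie at chr12:85473890-85477273 (Fos), chr7:19302696-19310051 (Fosb), chr5:32135801-32157842 (Fosl2), chr4:95049034-95052222 (Jun), chr8:84974484-84978718 (Junb), chr8:70698949-70700616 (Jund), chr10:67535475-67542188 (Egr2), chr15:101254269-101274795 (Nr4a1) and chr4:55527143-55532466 (Klf4), and Egr1 lies on chromosome 18. Counts cover their exons.

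Compared per length, as CPM per kilobase of exon, the order of the members differed between the groups. In co-culture the mean level was 438.0 for Junb, 55.4 for Fos, 39.8 for Nr4a1 and 24.7 for Egr1, and these 4 did not overlap with each other. In the alone libraries Junb led at 53.9, followed by Jund at 13.6 and Klf4 at 13.2, which overlapped. In the hearts the leading pair per length was always Junb and Jund except in sham, where Nr4a1 came between them. Junb and Jund were at 39.8 and 34.6 in FAPI and at 39.3 and 32.1 in MI hearts, overlapping in each, while in FapKO hearts Jund, at 44.1, lay above Junb, at 23.0, without overlap. In sham hearts Jund was at 44.6, Nr4a1 at 22.0 and Junb at 19.2, with the last pair overlapping. Fosb was lowest in all 6 groups, from 0.02 to 0.44 CPM per kilobase.

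Other genes of the immediate early programme were counted from lists of related genes. Their counts are to be read against the 7.05% higher and 6.12% lower over all genes in FAPI against FapKO. With total-count scaling, 1573 of all 17064 genes were higher and 745 lower there. In FAPI against FapKO hearts, 7 of 13 other immediate early transcription factors were higher and 0 lower (total-count scaling 9 and 0). They included Myc, a growth regulator (14.0 and 7.04 CPM, log2 0.99), Atf3, a stress-induced AP-1 partner (16.7 and 6.53 CPM, 1.35), and Nr4a2, a relative of Nr4a1 (3.51 and 2.26 CPM, 0.63), values given for FAPI and then FapKO hearts. Of 13 secreted immediate early proteins, 6 were higher and 0 lower (total-count 7 and 0), with Ccn2, a matricellular protein, at 132.4 and 70.7 CPM (log2 0.91), Thbs1, thrombospondin, at 143.4 and 61.9 CPM (1.21) and Ptgs2, cyclooxygenase, at 2.34 and 0.86 CPM (1.45). Among 20 feedback regulators, which dampen the response, 5 were higher and 1 lower (total-count 8 and 0), with Ier3 at 69.1 and 39.0 CPM (log2 0.83), Per1 at 0.60 and Nab2, an EGR co-repressor, at 0.56 on the log2 scale. Among the genes upstream, 0 of 14 MAP kinases were called by edgeR in either direction (total-count 1 and 0), and 2 of the 14, Map2k1 and Rps6ka1, had an unadjusted p under 0.05. Of 15 SRF, ternary complex and CREB factors, 0 were higher and 1 lower, the SRF coactivator Mrtfb (23.8 and 34.1 CPM, log2 -0.52). Of 11 AP-1 dimer partners 1 was higher, Atf4 (52.4 and 38.2 CPM, log2 0.46), and 0 lower (total-count 3 and 0).

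Heat shock and stress genes, which are known to respond to tissue handling as well as to injury, were counted in the same hearts. In FAPI against FapKO hearts 8 of 14 were higher and 3 lower, under both scalings, where TMM gave 7.05% of all genes higher and 6.12% lower. Total-count scaling gave 1573 of 17064 genes higher and 745 lower. Hspa1a, an inducible HSP70 gene that shares most of its sequence with Hspa1b, had 9.75 to 14.9 CPM in FAPI and 1.59 to 2.34 CPM in FapKO hearts (log2 2.50, SE 0.31, edgeR adjusted p = 9.92e-05), and reads of the pair may be split. The DNA damage genes Gadd45g and Gadd45a differed in direction, at log2 0.96 and -0.97.

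**Figure D4:**
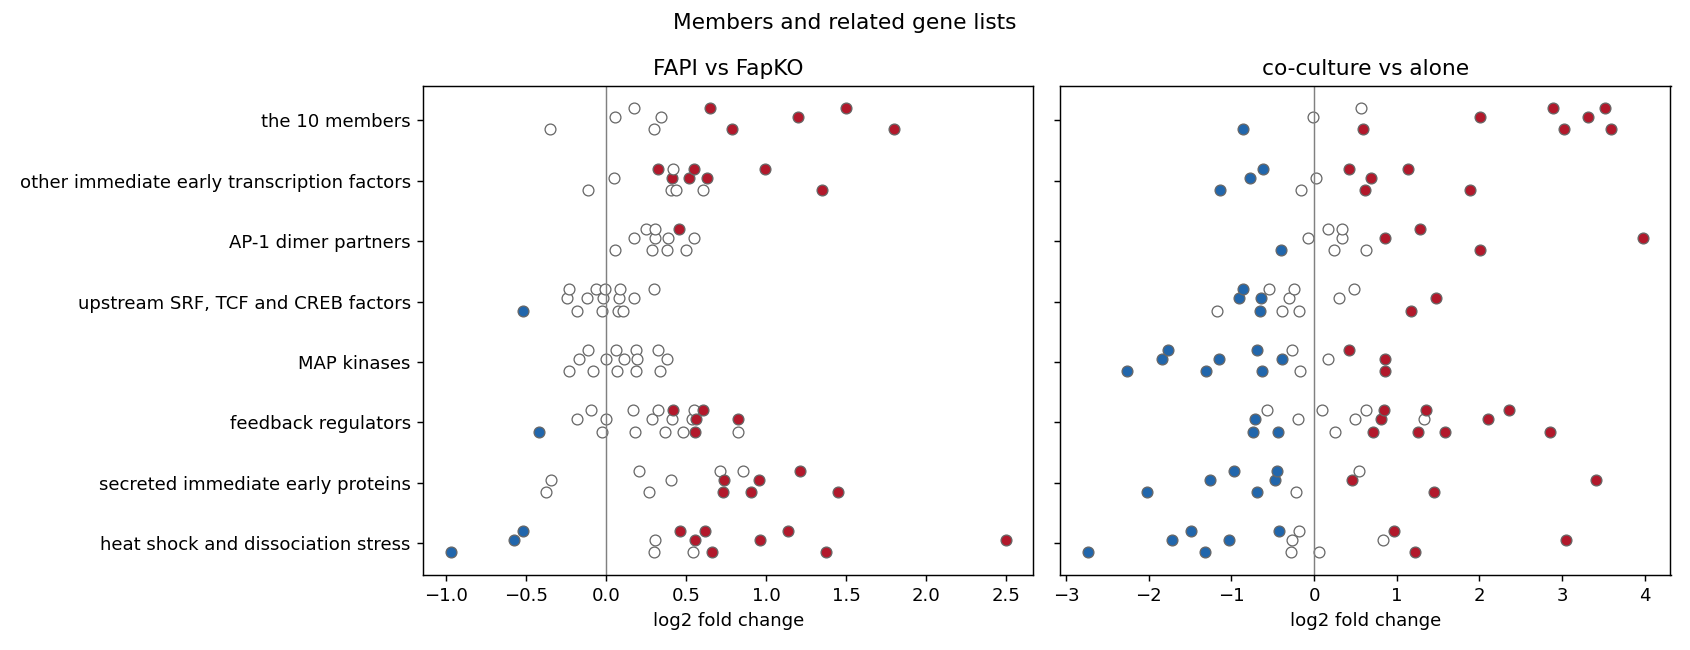
Log2 fold change of each tested gene of the 10 members and 7 related lists, FAPI over FapKO hearts on the left and co-culture over alone on the right; 1 point is 1 gene, vertical offsets within a row only separate points, and red (higher) and blue (lower) points are called by edgeR at an adjusted p under 0.05. In FAPI against FapKO 5 of 10 members and 7 of 13 other immediate early factors are red with 0 blue, and in culture the lists hold both colours.

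In culture each related list had members called in both directions, as did all genes, with 30.3% higher and 29.5% lower. With total-count scaling, 2506 of all 12293 genes were higher and 5162 lower. Of 10 other immediate early transcription factors tested, 5 were higher in co-culture and 3 lower (total-count scaling 2 and 3), with Ier2 (301.5 and 81.8 CPM in co-culture and alone, log2 1.88) and the shear-responsive factor Klf2 (26.6 and 12.2 CPM, 1.13) higher and Klf6 lower (97.7 and 215.6 CPM, -1.14). Of 19 feedback regulators 9 were higher and 3 lower (total-count 6 and 4). Those with the smallest p were Zfp36, an mRNA decay factor (189.8 and 26.3 CPM, log2 2.85), Nfkbia, the inhibitor of NF-kB (260.7 and 50.8 CPM, 2.36), and Dusp1, a MAP kinase phosphatase (404.0 and 135.0 CPM, 1.58). Of 11 secreted proteins 3 were higher and 6 lower (total-count 2 and 7), with the chemokines Cxcl1 (150.6 and 14.2 CPM, log2 3.41) and Ccl2 (299.9 and 109.9 CPM, 1.45) higher and Hbegf, an EGF receptor ligand, lower (6.13 and 24.9 CPM, -2.03). Of 14 MAP kinases 3 were higher and 8 lower (total-count 1 and 10), with Mapk3 at log2 0.86 and Rps6ka3 at -1.77. Of 14 SRF, ternary complex and CREB factors 2 were higher, Elk1 (log2 1.47) and Crtc2 (1.17), and 4 lower, Creb1 (-0.87) among them. Of 11 AP-1 dimer partners 4 were higher and 1 lower, with Batf (15.2 and 3.72 CPM, log2 2.01) and Batf2 (4.13 and 0.26 CPM, 3.98) among the higher. Of 14 heat shock and stress genes 3 were higher and 6 lower: Socs3, a cytokine feedback inhibitor, was at 63.0 and 7.62 CPM (log2 3.05) and the chaperonin Hspd1 at 73.7 and 206.7 CPM (-1.49).

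Against MI hearts, the lists were called as follows, where all genes gave 17.9% higher and 11.9% lower in FAPI and 25.0% higher and 26.0% lower in FapKO hearts. Of the 13 other immediate early factors, 2 were higher and 0 lower in FAPI hearts, Ier5 (30.5 and 20.6 CPM, log2 0.57) and Atf3 (16.7 and 8.32 CPM, 1.00), but total-count scaling gave 0 and 4. In FapKO hearts 1 was higher and 5 lower (total-count 0 and 10), with Myc at 7.04 and 12.5 CPM (log2 -0.83) and Klf6 at 123.5 and 203.7 CPM (-0.72). Of the 13 secreted proteins, 0 were higher and 9 lower in FapKO hearts (total-count 0 and 11), among them Thbs1 at 61.9 and 205.2 CPM (log2 -1.73) and Ccn2 (-1.17). In FAPI hearts 1 was higher and 2 lower (total-count 0 and 10). Of the 20 feedback regulators, 1 was higher and 12 lower in FapKO hearts (total-count 0 and 15), and 2 were higher and 5 lower in FAPI hearts (total-count 2 and 13). With total-count scaling, 1448 of all 17064 genes were higher and 8485 lower in FAPI hearts, and 2076 higher and 10455 lower in FapKO hearts. Both comparisons use the same 4 MI hearts.

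In MI against sham hearts, where 37.1% of all genes were higher and 32.0% lower, 9 of 13 secreted proteins were higher and 0 lower (total-count scaling 13 and 0), with Thbs1 at 205.2 and 33.7 CPM (log2 2.61). Over all 17064 genes, total-count scaling called 12663 higher and 2037 lower in this comparison. Of the 11 AP-1 dimer partners 7 were higher and 0 lower (total-count 11 and 0), among them Maf (log2 1.59) and Batf (1.62). Of the 13 other immediate early factors 5 were higher, Myc with the smallest p (12.5 and 5.13 CPM, log2 1.28), and 2 lower, Klf2 among them (43.4 and 79.7 CPM, -0.88), but total-count scaling gave 12 and 0. Of the 15 upstream factors 4 were higher and 7 lower (total-count 13 and 1), with Mrtfa at log2 1.59 and Myocd, a coactivator of cardiac and smooth muscle, at -2.01.

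Among hearts of the same group, the members differed in how closely they followed their common mean. Over the 15 hearts, the Pearson correlation of each member's log2 deviation from its group mean with the mean deviation of all 10 was 0.82 for Fos, 0.77 for Egr2, 0.69 for Junb, 0.69 for Nr4a1, 0.62 for Egr1, 0.59 for Fosl2, 0.45 for Fosb, 0.28 for Klf4, 0.23 for Jun and 0.11 for Jund, and each gene is part of the mean it is set against. Of the other genes with a mean of 5 CPM or more, those most like this mean were Tuba1a (0.89), Hp (0.87), Rad17 (0.85), Mindy3 (0.84), Ufl1 (0.83), Mrc1 (0.83), Fhl1 (0.82), Bhlhe40 (0.82), Mt2 (0.81) and Igfbp4 (0.81). These correlations describe 15 libraries that share their preparation and scaling, and these genes were chosen for the height of their correlation.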

How the data were processed

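Gene counts were deposited for each library. Per the submitters' processing notes, STAR, HTSeq and the build mm10 were used; the sources used here give no versions and no strand setting. Per the labels' protocols, heart libraries came from total RNA by an adapted Smart-seq2 protocol that adds UMIs, and culture libraries from polyA RNA read as 150 bp pairs. Whether the deposited heart counts are of UMIs or of reads is not stated there.

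Of 53801 identifiers 53620 were paired with a symbol, and 0 rows named no gene. The series-wide table has 6 columns that were not used, since their names match no sample's labels. Heart and culture libraries were fitted separately with edgeR 4.0.16 (R 4.3.3): filterByExpr, TMM, glmQLFit over all groups of the experiment, glmQLFTest, Benjamini-Hochberg adjustment and a threshold of 0.05. Fold changes are first-named group over second, and log2 CPM used a prior count of 0.5. RLE and total-count scaling, no filter, DESeq2 1.42.0, limma-voom 3.58.1, a replicate block, fits on 2 groups, a cardiomyocyte covariate in hearts, thinned libraries in culture and leaving out each library were tried as alternatives. A macrophage covariate was added after seeing the data.

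On simulated FapKO against MI counts the test recovered 33.3% of 1.5-fold, 72.7% of 2-fold and 96.9% of 4-fold changes, with 5 of 16369 unchanged genes called. On simulated culture counts it recovered 1.52%, 38.5% and 93.8%, with 8 of 11821 called. Only a small set of genes was changed in these simulations. In the real comparisons 51.0% and 59.8% of all genes were called, so these rates may not carry over. The 10 members are named in every comparison, and from each related list the 3 genes with the smallest p, of which some are shown. Members and lists were chosen with earlier results of these data known. No library was a copy of another of its group, and pairs across groups were not checked. Depth limits Fosb most. Some genes of these lists are not reported here by name.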

Additional observations from a re-analysis of the deposited data

Results flagged for a closer look

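In 2 of the 30 member and group combinations with 4 hearts, 1 heart stood apart from the other 3 by a gap above Dixon's 95% critical value for 4 samples, as a share of the group's range, and chance flags about 1 in 20. Jun was 52.7 CPM in FapKO replicate 2, against 39.1 to 40.7 CPM in the other FapKO hearts (gap over range 0.88). Junb was 102.0 CPM in FAPI replicate 1, against 87.0 to 89.5 CPM in the other FAPI hearts (gap over range 0.83).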

How the results depend on the processing

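Over the member results, 938 alternative values kept direction and side of the threshold, 52 lost the call, 21 gained it and 53 changed sign. The causes were not tested.

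Total-count scaling turned the sign in MI against sham for Fos (0.36), Jun (0.79), Jund (0.61) and Klf4 (0.73), in FAPI against MI for Junb (-0.38), Jund (-0.33) and Egr1 (-0.36), and in FapKO against MI for Jun (-0.37), Jund (-0.10) and Nr4a1 (-0.34). It did so in FAPI against sham for Fos (0.55), Jund (0.28) and Klf4 (0.25), and in FapKO against sham for Fosb (0.23), Jun (0.41), Jund (0.51) and Klf4 (0.059). With it, 7 of 10 members and 12531 of 17064 genes were called in FapKO against MI. In FAPI against MI it called 4 of 10 members and 9933 of 17064 genes. The share of higher calls among all calls was 86.1% with total-count scaling and 53.7% with TMM in MI against sham, 14.6% and 60.1% in FAPI against MI, 16.6% and 49.1% in FapKO against MI, 67.9% and 53.5% in FAPI against FapKO, 86.8% and 52.4% in FAPI against sham, 91.7% and 48.7% in FapKO against sham, and 32.7% and 50.7% in culture.

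The cardiomyocyte covariate left 0 members and 735 genes called in MI against sham, 0 and 26 in FAPI against MI, 0 and 122 in FapKO against MI, 3 members and 4841 genes in FAPI against sham, and 3773 genes in FapKO against sham. It turned Jund in MI against sham (1.03), Junb (-0.17), Jund (-0.81), Egr1 (-0.014) and Nr4a1 (-0.18) in FAPI against MI, Jund (-0.66) and Nr4a1 (-1.04) in FapKO against MI, and Jund against sham in FAPI (0.22) and FapKO hearts (0.37). The macrophage covariate, added after seeing the data, left 0 members and 100 genes in FAPI against FapKO and turned Fosl2 (-0.033) and Jund (0.57).

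Fits on 2 groups turned Junb in FAPI against MI (-0.011) and Jund in FapKO against sham (0.037). Jund in FapKO against sham also turned without the filter (0.033), and Jun in culture with limma-voom (0.017). The replicate block turned Jund in FapKO against sham (0.031) and Jun in culture (0.031) and changed no member call: 5 members and 2035 genes were called in FAPI against FapKO. Same-numbered libraries correlated at -0.26 to 0.02 there, at 0.07 to 0.30 in FapKO against MI and at 0.08 to 0.17 in MI against sham. No comparison had every pair over 0.1, so the numbers were not taken as pairing the samples.

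Leaving out 1 library gave 2 to 4 members and 3359 to 5495 genes in FAPI against MI, and 3 to 5 members and 1125 to 2920 genes in FAPI against FapKO. The 3 members and 1125 genes were without FapKO replicate 3, and the count of genes was 1352 without FAPI replicate 1, 1197 without FAPI replicate 3 and 1430 without FapKO replicate 1. Signs turned within these ranges: in FAPI against MI, Junb -0.039 to 0.13, Jund -0.064 to 0.29 and Egr1 -0.074 to 0.17; in FapKO against MI, Egr1 -0.20 to 0.025; in FAPI against FapKO, Jund -0.50 to 0.017 and Klf4 -0.0008 to 0.091. In FAPI against sham Fos ran from -0.44 to 0.074, in FapKO against sham Jun from -0.26 to 0.0033 and Jund from -0.38 to 0.14, and in culture Jun from -0.21 to 0.27. Counts of 2 to 20 limit Fosb, which was not tested in the thinned culture fit or in the fits on 2 groups for FAPI against FapKO, FapKO against MI, FAPI against sham and FapKO against sham.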

Other observations

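Within groups, single libraries were often high or low for many members at once. Sham replicate 3 was the highest sham heart for 8 of 10 members, MI replicate 3 the highest MI heart for 6 and FapKO replicate 4 the highest FapKO heart for 5. In culture, co-culture replicate 2 was the lowest of its group for 8 members and alone replicate 2 the highest of its group for 9.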
